A study of Rattus norvegicus with 18 samples.

Results

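Hao2 and Miox, 2 oxidases of the kidney, were followed in kidney RNA of male rats. They were chosen by gene name and are 2 of the 29 features in the table analysed here, which also holds 14 other nuclear named genes, 12 mitochondrial genes and 1 unnamed feature. All rats were 23 weeks old, and each of the 6 groups had 3 libraries. Diabetic rats were given water (DM) or plantain flour at a low (LP, 1 g per kg), medium (MP, 2 g per kg) or high dose (HP, 4 g per kg), and healthy rats were given the high dose of flour (NH) or water (NC). The label of NH names the dose in words and not in g per kg. The labels give no strain, no way in which diabetes was brought about and no word on whether the libraries of a group are separate animals. The p-values therefore refer to the spread between these libraries, which may be technical.

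Hao2 encodes hydroxyacid oxidase 2, a flavin enzyme of peroxisomes that oxidises hydroxy fatty acids and other alpha-hydroxy acids to keto acids and releases hydrogen peroxide. Miox encodes myo-inositol oxygenase, an iron enzyme of the cytosol that opens the ring of myo-inositol to form glucuronate, the first step of inositol breakdown through the glucuronate-xylulose pathway. Both are known as genes of the proximal tubule, the segment that reabsorbs most of the filtered solutes and is rich in peroxisomes and mitochondria. Miox is also known as a gene studied in diabetic kidney injury.

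The start regions of the 2 genes are shown because both genes moved the same way relative to most other nuclear genes in diabetic kidneys. Each line runs 5′ to 3′ over 300 bases, from 250 before to 50 after the start, from RefSeq on build GRCr8 at chr2:188913084-188913383 (minus strand) for Hao2 and chr7:122284410-122284709 (plus strand) for Miox. Capitals mark matches, on either strand, to GTTAAN, a stretch of the element bound by the tubule and liver factor HNF1, and to TATAAA.
Hao2: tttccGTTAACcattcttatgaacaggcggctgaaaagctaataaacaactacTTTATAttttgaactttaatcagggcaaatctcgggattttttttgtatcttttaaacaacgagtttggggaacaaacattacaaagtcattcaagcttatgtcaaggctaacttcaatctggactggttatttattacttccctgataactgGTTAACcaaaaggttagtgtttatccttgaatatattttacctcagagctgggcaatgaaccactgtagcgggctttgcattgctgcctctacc
Miox: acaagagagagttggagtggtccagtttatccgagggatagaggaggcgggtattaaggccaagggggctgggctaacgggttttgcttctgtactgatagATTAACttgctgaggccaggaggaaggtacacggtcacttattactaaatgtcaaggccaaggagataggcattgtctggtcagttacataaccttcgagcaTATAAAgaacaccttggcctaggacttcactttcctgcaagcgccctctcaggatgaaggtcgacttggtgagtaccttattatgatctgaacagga

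The Hao2 region held 37.0% G and C and the Miox region 48.0%. GTTAAN occurred 2 times in the Hao2 region, beginning 245 and 44 bases before the start, and 1 time in the Miox region, 149 bases before it. It was found in 24.9% of 33469 rat start regions of the same length. TATAAA lay 47 bases before the start of Miox and, on the other strand, 197 bases before that of Hao2, and 14.2% of the regions held it. No match to TGACNNNGC (the core of the antioxidant response element), CACGTG (an E-box) or AGGTCA (a nuclear receptor element) was found in either window, and 12.1, 6.42 and 16.2% of all regions held them. The motifs were chosen after the sequences were seen, no listed motifs overlapped in these windows, and a match is a description of letters.

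In the deposited table, Hao2 (ENSRNOG00000019470) lies on chromosome 2 from 200778122 to 200808857 on the plus strand with a listed length of 2204 bases, and Miox (ENSRNOG00000008694) on chromosome 7 from 130308532 to 130313727 on the plus strand with 2686 bases. Both are annotated as protein-coding. No source used here names the build of these positions. They differ from those of GRCr8, where Hao2 has the opposite strand, so the 2 sets of positions are not interchangeable. The library kit does not mark strand, so reads from overlapping genes on opposite strands cannot be told apart.

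Library totals are unknown, and the counts of the listed features summed to 4440262 to 10306858 per library. Mitochondrial genes took 77.1 to 88.7% of the counts of named genes in the 12 diabetic libraries and 92.7 to 95.5% in the 6 healthy libraries. Their part in the results below was not tested, and fold changes are therefore given under 4 scalings. The first was the trimmed mean of M-values (TMM) over the 29 features, and the second used the median ratio to a mean library (median-ratio scaling). The third divided by the geometric mean of the nuclear genes other than Hao2 and Miox (nuclear scaling), and the fourth left counts unscaled. A ratio of 2 genes within 1 library depends on none of them. A gene passed the test where edgeR's quasi-likelihood F test gave an adjusted p under 0.05, adjusted over all 29 features.

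Hao2 had more deposited counts in untreated healthy kidneys than in any other group, while Miox counts were alike in size throughout. Under TMM the highest group mean was that of LP for both genes. Among diabetic rats, DM libraries had 32917, 30405 and 32535 Hao2 counts, LP libraries 36439, 37979 and 39377, MP libraries 34404, 37053 and 30337, and HP libraries 40934, 38834 and 37373. Among healthy rats, NH libraries had 31793, 38604 and 44252 and NC libraries 56113, 54098 and 60820. Every NC library lay above the other 15 libraries, and each neighbouring pair among the remaining groups, ordered by mean, overlapped.

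DM libraries had 32206, 31592 and 29539 Miox counts, LP libraries 31129, 27108 and 31690, MP libraries 26556, 36352 and 26296, and HP libraries 28919, 32554 and 35482. NH libraries had 22936, 30825 and 30359 and NC libraries 27434, 29290 and 35073. Every neighbouring pair of groups overlapped. Across the 18 libraries, Miox had the lowest coefficient of variation of the 29 features, 11.5%, followed by Slc3a1 at 21.6% and Hao2 at 22.3%, against a median of 37.3% and 71.9% for Pck1, the most variable. This evenness is one of deposited counts and does not carry over to shares.

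**Figure D1:**
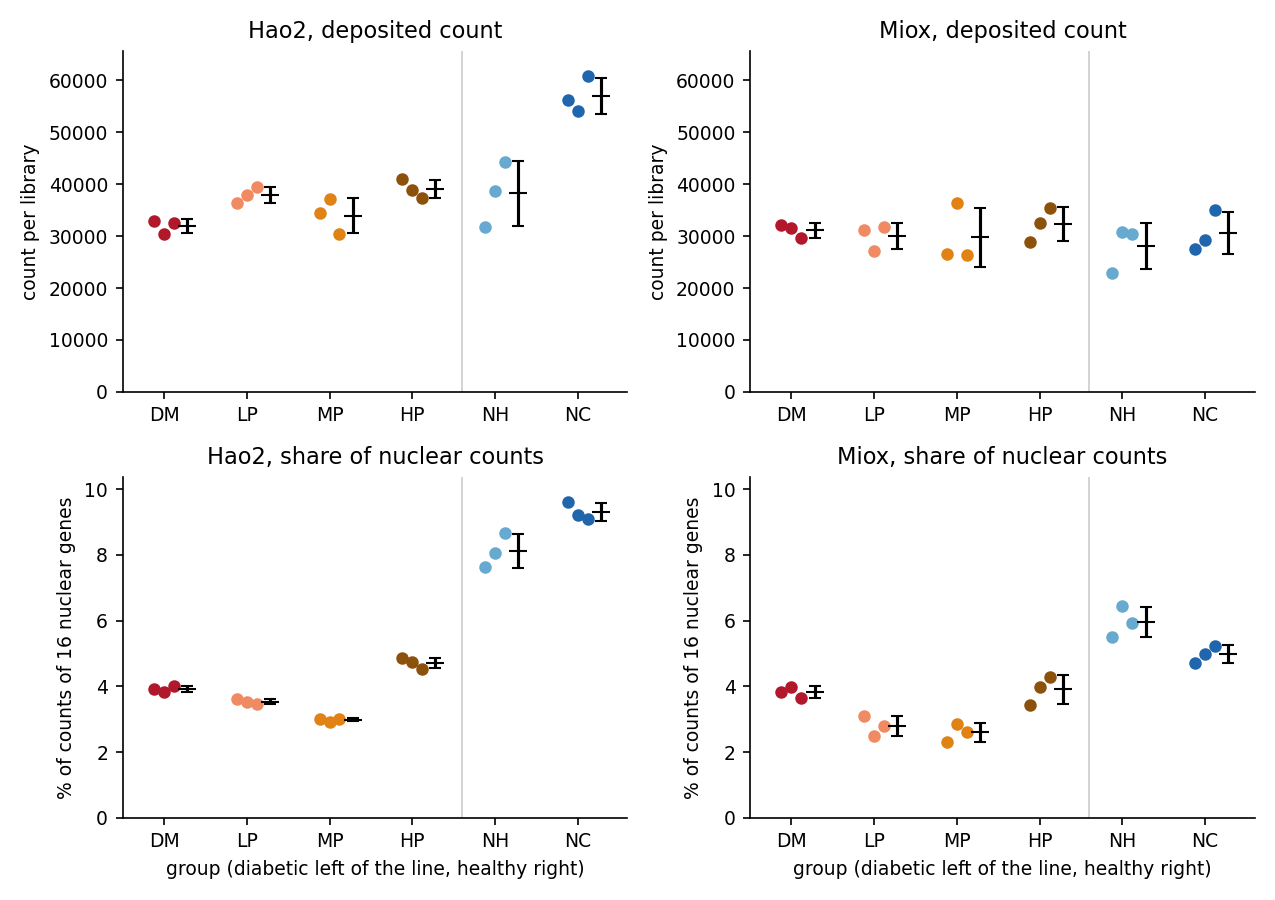
Hao2 (left) and Miox (right) in each library, as deposited counts (top) and as a share of the counts of the 16 nuclear genes in percent (bottom). Points are libraries, black bars are the mean and SD of 3, and the grey line parts diabetic from healthy groups. Hao2 counts average 57010 in NC, and every other group mean of either gene lies between 28040 and 39047. The shares of both genes are lower in all 12 diabetic libraries than in the 6 healthy ones, which does not hold under TMM scaling over all 18 libraries.

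As a share of the counts of the 16 nuclear genes, both genes were lower in diabetic than in healthy kidneys. That direction did not hold for either under TMM over all 18 libraries. For Hao2, DM averaged 3.93% ± 0.09, LP 3.54% ± 0.0833, MP 2.98% ± 0.0436 and HP 4.71% ± 0.164, whereas NH averaged 8.12% ± 0.517 and NC 9.30% ± 0.274 (SD, n = 3). For Miox, DM averaged 3.83% ± 0.17, LP 2.80% ± 0.3, MP 2.60% ± 0.28 and HP 3.91% ± 0.441, whereas NH averaged 5.96% ± 0.465 and NC 4.97% ± 0.27 (SD, n = 3). The highest diabetic library reached 4.85% for Hao2 and 4.30% for Miox, and the lowest healthy library 7.63 and 4.70%. In whole kidney RNA, fewer cells of a type and less RNA per cell cannot be told apart.

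Measured against the geometric mean of the other 14 nuclear genes, no neighbouring groups of Hao2 overlapped. The order was MP at 0.56, DM at 0.642, LP at 0.673, HP at 0.77, NH at 1.49 and NC at 1.69 times that mean. For Miox it was MP at 0.488, LP at 0.532, DM at 0.626, HP at 0.638, NC at 0.906 and NH at 1.1. Overlap lay between MP and LP, between DM and HP, and between LP (up to 0.59) and HP (from 0.56). NC was thus the highest group for Hao2 and NH for Miox on this scale.

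**Figure D2:**
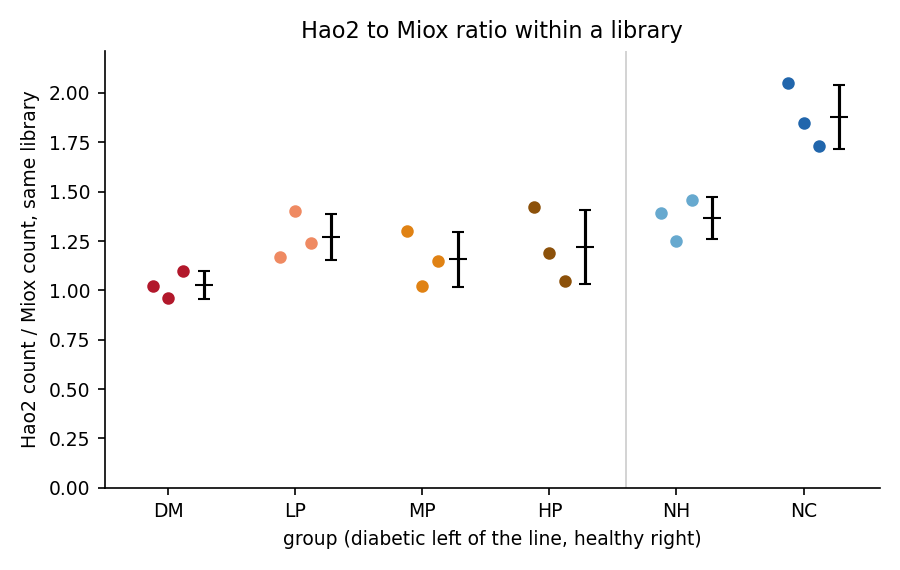
Hao2 count divided by Miox count in the same library, by group, with the mean and SD of 3 libraries in black and a grey line between diabetic and healthy groups. NC libraries lie at 1.73 to 2.05, above every other library, and DM libraries at 0.962 to 1.1.

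Among the 6 comparisons of 2 groups, the ratio of the transcripts differed most between the water-fed groups. Hao2 counts were 1.02, 0.962 and 1.1 times the Miox counts in DM, against 2.05, 1.85 and 1.73 times in NC. The 2 genes thus had about equal counts in untreated diabetic kidneys, and each NC library had a higher ratio than each DM library. Per base of listed length, Hao2 stood at 1.25 ± 0.085 times Miox in DM and 2.28 ± 0.192 times Miox in NC (SD, n = 3). The ratio was 1.82 times lower in DM (log2 difference -0.87, SE 0.089, two-sided exact permutation p = 0.1, adjusted p = 0.18 over 9 ratio tests). No smaller p than 0.1 can arise with 3 libraries a group. Groups that did not overlap were common among nuclear genes. Of the 120 ratios between any 2 of the 16 nuclear genes, 108 (90.0%) did not overlap between DM and NC, with a median size of 0.92 on the log2 scale.

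With the high dose in both groups, the ratio did not separate diabetic from healthy rats. It was 1.42, 1.19 and 1.05 in HP, against 1.39, 1.25 and 1.46 in NH, and the groups overlapped. The log2 difference was -0.17 (SE 0.139, exact permutation p = 0.3, adjusted p = 0.337). Averaged over both feeds, the diabetic ratio was 1.43 times lower (log2 -0.52, SE 0.083, exact permutation p = 0.015 with labels exchanged within each feed, adjusted p = 0.0675), which did not pass the adjustment.

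Comparing DM with NC asked how untreated diabetes bore on each gene. Hao2 fell under 3 of the 4 scalings, as the median of the 29 features did, and Miox had no single direction. Hao2 averaged 31952 ± 1354 counts in DM against 57010 ± 3450 in NC (SD, n = 3). Its log2 fold change was -0.84 with unscaled counts, -1.40 with nuclear scaling and -0.31 under median-ratio scaling (adjusted p of 1.51e-06, 1.95e-12 and 0.00126 by edgeR). It was 0.10 under TMM (SE 0.127, adjusted p = 0.561). The median over the 29 features was the same under each scaling, at -0.84, -1.40, -0.31 and 0.10 in the same order. The fall of Hao2 was thus that of the median feature. Without NC replicate 2, the TMM value of Hao2 was -0.32 with an adjusted p of 0.0265. TMM over the 2 groups alone gave -0.16, which passed (adjusted p = 0.00258 by edgeR). Miox averaged 31112 ± 1397 counts in DM against 30599 ± 3984 in NC. It rose under TMM (log2 0.96, SE 0.21, adjusted p = 0.000696) and under median-ratio scaling (0.55), fell with nuclear scaling (-0.53) and did not pass unscaled (0.02, adjusted p = 0.869). Most features passed in this comparison, 55.2% of the 29 under TMM, 93.1% under median-ratio scaling, 86.2% with nuclear scaling and 89.7% unscaled. Neither gene was among the 24.1% that passed in 1 direction under all 4.

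A scaling shifts the mean log2 difference of all features alike, so their order does not depend on it. Ranked by the mean log2 difference in counts between DM and NC, Hao2 was the median feature, the 15th lowest of 29, and the 12 mitochondrial genes and the unnamed feature lay below it. Among the 16 nuclear genes it was the second lowest, above Gclc alone, which encodes the subunit that catalyses the first step of glutathione synthesis. Miox was the fourth lowest, and Slc3a1, which carries cystine with its partner subunit, lay between them. Relative to the median of the nuclear genes, Hao2 lay at -1.32 and Miox at -0.46 on the log2 scale.

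**Figure D3:**
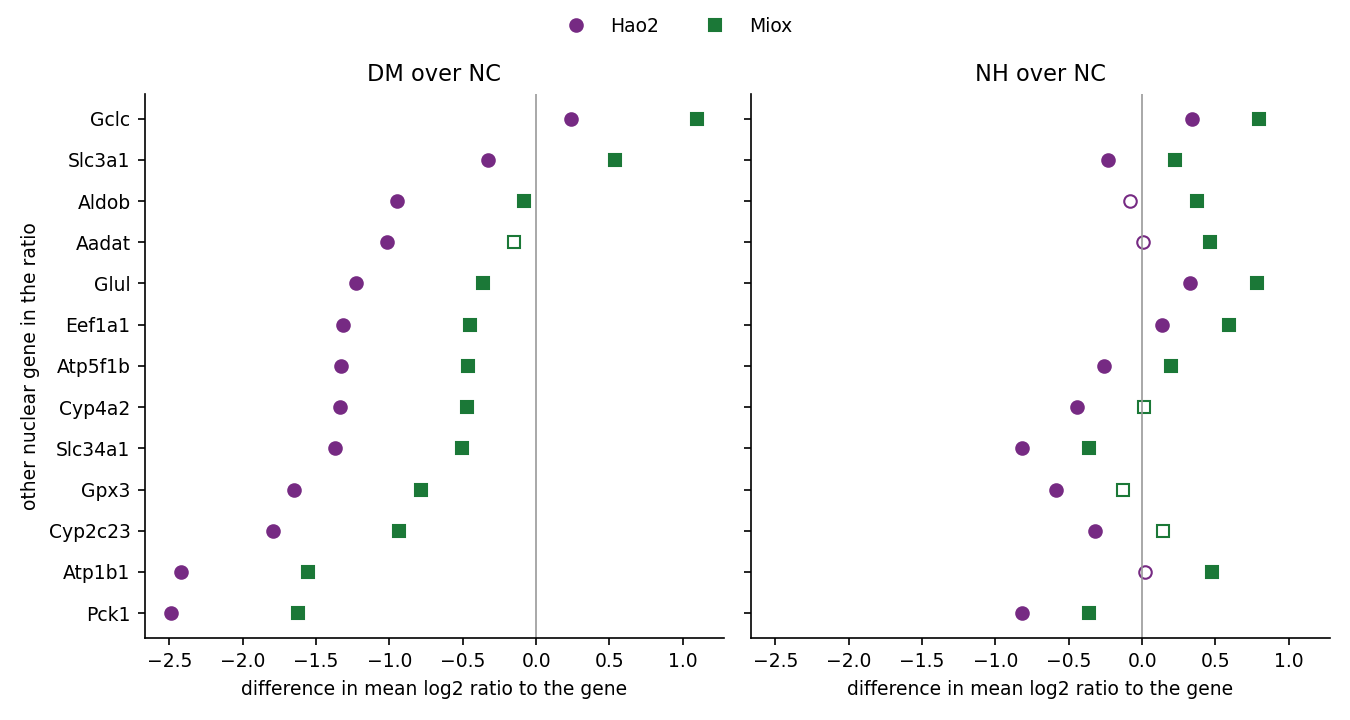
Difference in the mean log2 ratio of Hao2 (circles) or Miox (squares) to each of 13 of the other nuclear genes, for DM over NC (left) and NH over NC (right). Filled symbols mark ratios whose libraries did not overlap between the groups, and the vertical line marks no difference. In DM over NC, Hao2 lies left of the line against 12 of the genes shown, down to -2.49 against Pck1, and right of it against Gclc at 0.24.

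Set against other single genes within each library, Hao2 was lower in DM than in NC relative to 13 of 14 nuclear genes, and in all 13 the libraries of the groups did not overlap. The 14 ratios share the Hao2 count and are not independent. In either direction, 14 of 14 ratios did not overlap for Hao2 and 13 of 14 for Miox, with 90.0% as the background. The gap of Hao2 was -2.49 in log2 against Pck1, the rate-limiting enzyme of gluconeogenesis, and -0.33 against Slc3a1. Against Gclc alone Hao2 was higher, by 0.24. Miox was lower relative to 12 of the 14 genes, 11 of them without overlap, at -1.62 against Pck1. It was higher relative to Gclc (1.10) and Slc3a1 (0.54).

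In HP against NH, the same 2 genes ended at the low side of the nuclear genes. Hao2 was the lowest of the 16 and Miox the third lowest, and Hao2 was lower relative to 14 of 14 other genes, 12 of them without overlap (75.8% of the 120 ratios of nuclear genes did not overlap). Miox was lower relative to 13, 11 of them without overlap, and level with Slc3a1 (0.00). Hao2 averaged 39047 ± 1790 counts in HP and 38216 ± 6239 in NH, and Miox 32318 ± 3288 in HP and 28040 ± 4426 in NH (SD, n = 3). Their fold changes turned with the scaling. Hao2 rose under TMM (log2 0.54, adjusted p = 0.00127 by edgeR) and fell with nuclear scaling (-0.95, adjusted p = 1.29e-10). Its TMM value was 0.16 without NH replicate 1 (adjusted p = 0.0442 by edgeR) and 0.37 in the 2 groups alone (adjusted p = 0.094). Miox rose under TMM (0.73, adjusted p = 0.00525, and 0.0773 without NH replicate 1) and fell with nuclear scaling (-0.78, adjusted p = 2.59e-06). Neither gene passed under median-ratio scaling (-0.04 for Hao2 and 0.15 for Miox) or unscaled (0.03 and 0.20). Of the 29 features, 75.9% passed under TMM, 82.8% under median-ratio scaling, 89.7% with nuclear scaling, 79.3% unscaled and 37.9% in 1 direction under all 4.

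**Figure D4:**
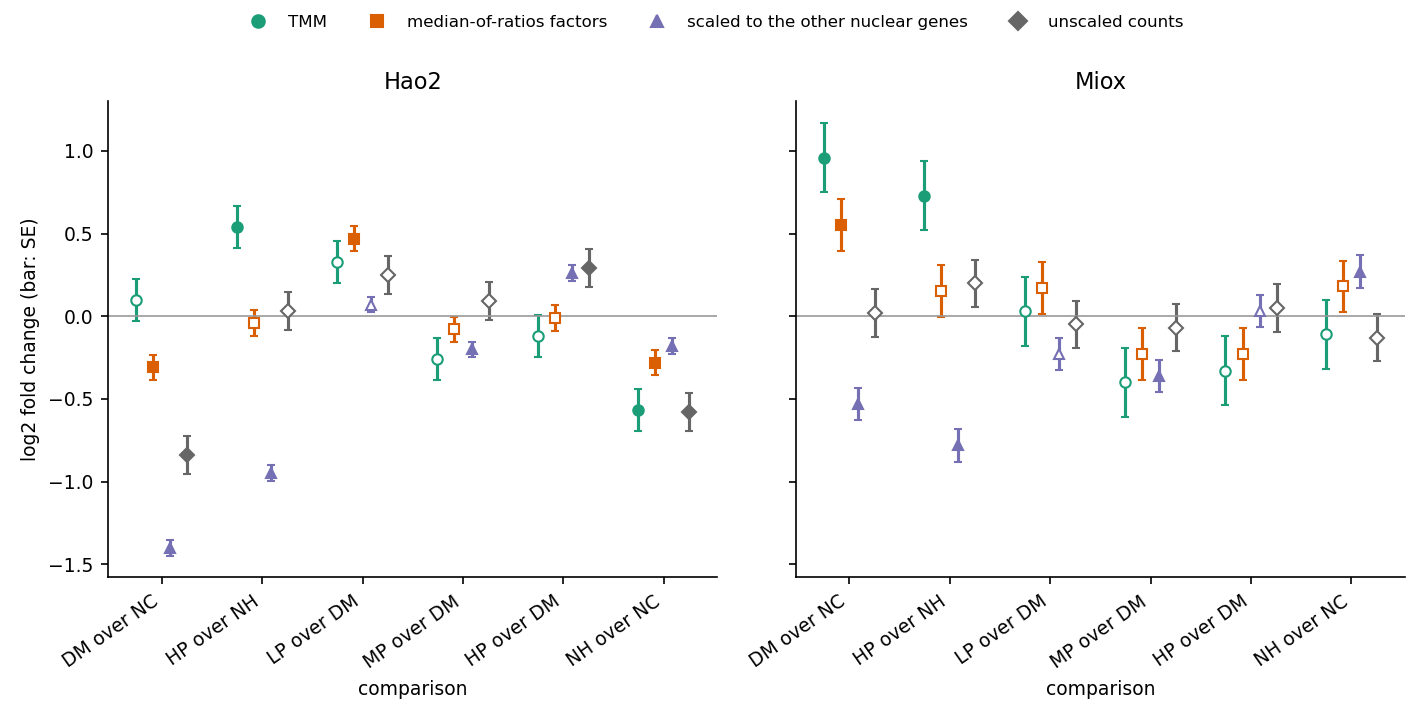
Log2 fold change of Hao2 (left) and Miox (right) in 6 comparisons under 4 scalings, with the SE as bars. Filled symbols passed an adjusted p of 0.05 in edgeR and open ones did not. Hao2 in NH over NC, at -0.57, -0.28, -0.18 and -0.58, is the single comparison in which all 4 symbols are filled on the same side of 0.

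In healthy rats, the high dose of flour went with lower Hao2 under every scaling. Hao2 had 31793, 38604 and 44252 counts in NH, against 56113, 54098 and 60820 in NC. The log2 fold change was -0.57 under TMM (SE 0.127, adjusted p = 0.00173 by edgeR), -0.58 unscaled, -0.28 under median-ratio scaling and -0.18 with nuclear scaling, or 1.14 to 1.49 times lower (adjusted p of at most 0.00394). Leaving out any 1 library of the 2 groups kept the adjusted p at or below 0.0442 under each of the 4 scalings. In this comparison 51.7% of the 29 features passed under TMM, 72.4% under median-ratio scaling, 79.3% with nuclear scaling and 37.9% unscaled, and 31.0% (9 features) passed in 1 direction under all 4. The size depended on what Hao2 was compared with, since it lay 0.56 below the median of the 29 features but 0.16 below that of the nuclear genes.

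Miox had no single direction in the same comparison. It had 22936, 30825 and 30359 counts in NH, against 27434, 29290 and 35073 in NC, and the groups overlapped. Its log2 fold change was -0.11 by edgeR under TMM (SE 0.208, adjusted p = 0.716) and -0.13 unscaled, while it was 0.18 under median-ratio scaling and rose with nuclear scaling (0.27, adjusted p = 0.0203). The Hao2 to Miox ratio averaged 1.37 ± 0.107 in NH and 1.88 ± 0.162 in NC (SD, n = 3) and was 1.37 times lower in NH, with no overlap (log2 -0.46, SE 0.095, exact permutation p = 0.1, adjusted p = 0.18). Of the 120 nuclear ratios, 74.2% did not overlap between these groups, and their median size was 0.37.

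Relative to single genes, Hao2 and Miox ratios without overlap between NH and NC were about as common as the 74.2% among all nuclear ratios, at 10 and 11 of 14. Hao2 was lower in NH than in NC relative to 8 of 14 nuclear genes, 7 of them without overlap, and higher relative to 6. It was at -0.82 against both Pck1 and Slc34a1, the phosphate transporter of the proximal tubule. It was higher without overlap relative to Gclc (0.34), Glul, which makes glutamine (0.32), and the elongation factor Eef1a1 (0.13). Miox was higher relative to 11 of 14, 9 of them without overlap, led by Gclc (0.80) and Glul (0.78). It was lower without overlap relative to Pck1 and Slc34a1 (-0.36 each).

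Among diabetic rats, no dose moved either gene under all 4 scalings, with DM as the baseline of each dose. At the low dose, Hao2 had 36439, 37979 and 39377 counts in LP, against 32917, 30405 and 32535 in DM. Its log2 fold change was positive under each scaling, from 0.07 with nuclear scaling to 0.47 under median-ratio scaling, and the value of 0.47 alone passed (adjusted p = 7.88e-05 by edgeR). Under TMM it was 0.33 (SE 0.127, adjusted p = 0.0629), and 27.6% of the features passed, against 41.4% under median-ratio scaling, 48.3% with nuclear scaling, 24.1% unscaled and 17.2% in 1 direction under all 4. Miox values ran from -0.23 to 0.17 and passed under none. The Hao2 to Miox ratio was 1.17, 1.4 and 1.24 in LP, above each DM library (log2 0.30, SE 0.095, exact permutation p = 0.1, adjusted p = 0.18), where 85.8% of the nuclear ratios did not overlap and their median size was 0.52.

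At the medium dose, both genes lay near the middle of the nuclear genes, and calls depended on the scaling. Ranked by the mean log2 difference between MP and DM, Hao2 was the 10th lowest of 16 and Miox the 7th lowest, at 0.08 and -0.08 relative to the nuclear median. Hao2 was higher relative to 8 of 14 single nuclear genes (6 without overlap) and lower relative to 6 (all without overlap). Miox was higher relative to 6 (1 without overlap) and lower relative to 8 (6 without overlap), where 75.8% of the 120 nuclear ratios did not overlap. Hao2 and Miox had gaps of -1.25 and -1.41 against Gpx3, the secreted glutathione peroxidase, and -1.24 and -1.41 against Pck1, the 2 nuclear genes with the highest MP over DM difference. Hao2 averaged 33931 ± 3383 counts in MP and 31952 ± 1354 in DM, and Miox 29735 ± 5732 in MP and 31112 ± 1397 in DM (SD, n = 3). With nuclear scaling Hao2 fell by 0.20 and Miox by 0.36 on the log2 scale (adjusted p of 0.00238 and 0.00592 by edgeR), as 48.3% of the features passed there. Under TMM, where 44.8% of the features passed, the values were -0.26 (adjusted p = 0.113) and -0.40 (adjusted p = 0.124). With the replicate number as a block, the Hao2 value was -0.27 (adjusted p = 0.0486 by edgeR). The blocked Miox value was -0.43 (adjusted p = 0.0642) and did not pass. That fit covered all 18 libraries with replicate effects shared by the 6 groups, so it is not a paired fit of MP and DM. Without MP replicate 2, whose 36352 counts of Miox were above the 26556 and 26296 of the other MP libraries, Miox was at -0.58 (adjusted p = 0.0478). Unscaled, Hao2 was at 0.09 and did not pass. Under median-ratio scaling neither gene passed (-0.08 and -0.23). Those scalings passed 37.9 and 51.7% of the features, and 13.8% passed in 1 direction under all 4. The ratio overlapped, at 1.3, 1.02 and 1.15 in MP, against 1.02, 0.962 and 1.1 in DM (log2 0.16, SE 0.115, exact permutation p = 0.3, adjusted p = 0.337). Paired by replicate number, it was higher in MP in 3 of 3 pairs (log2 0.16, SE 0.089, exact permutation p = 0.25, the smallest that 3 pairs allow).

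At the high dose, Hao2 counts exceeded those of DM while the Miox counts overlapped. Hao2 had 40934, 38834 and 37373 counts in HP, against 32917, 30405 and 32535 in DM. It rose by 0.26 in log2 with nuclear scaling, where edgeR gave an adjusted p of 0.000733 and 58.6% of the features passed. Unscaled, it rose by 0.29 (adjusted p = 0.0405, with 62.1% passing). The median feature of the 29 stood at 0.28 with nuclear scaling and at 0.30 unscaled, so neither rise exceeded that of the median feature. Hao2 lay at 0.00 relative to the median of the 29 features and 0.24 above that of the 16 nuclear genes. It did not pass under TMM (-0.12, adjusted p = 0.445, with 37.9% of the features passing) or under median-ratio scaling (-0.01, with 31.0% passing). Relative to single nuclear genes it was higher against 12 of 14, 11 of them without overlap. It was lower against 2, 1 of them without overlap (Slc3a1, -0.08). In either direction, 12 of 14 ratios (85.7%) did not overlap for Hao2 and 5 of 14 (35.7%) for Miox, with 58.3% as the background. Miox values lay between -0.33 and 0.05 and passed under no scaling, although the TMM value was -0.54 without HP replicate 3 (adjusted p = 0.0478). The ratio overlapped (log2 0.24, SE 0.136, exact permutation p = 0.2, adjusted p = 0.3).

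Along the dose in g per kg, neither gene had a slope that passed under any scaling. The slopes in log2 count per g per kg lay between -0.05 and 0.06 for Hao2 and between -0.08 and 0.02 for Miox (edgeR, adjusted p of at least 0.114). Without HP replicate 3, the Miox slope under TMM was -0.12 with an adjusted p of 0.05, which passed before rounding. Slopes of 17.2% of the features passed under TMM, 20.7% under median-ratio scaling, 41.4% with nuclear scaling, 51.7% unscaled and 6.9% in 1 direction under all 4. The shares of both genes were lowest at the medium dose and did not follow the dose order.

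The effect of the high dose differed in direction between diabetic and healthy rats for Hao2 under some scalings. The log2 fold change of HP over DM less that of NH over NC came to 0.45 with nuclear scaling (SE 0.067, adjusted p = 0.000109 by edgeR, with 31.0% of the features passing). Unscaled it came to 0.87 (adjusted p = 0.000259, with 24.1% passing). It was 0.44 under TMM (SE 0.179, adjusted p = 0.154, with 3.45% of the features passing) and 0.27 under median-ratio scaling (adjusted p = 0.0764, with 17.2% passing). The median feature of the 29 had a difference of 0.39 unscaled, -0.05 with nuclear scaling, -0.05 under TMM and -0.24 under median-ratio scaling. Part of the unscaled value of Hao2 was thus shared by the table. The Miox difference ran from -0.40 to 0.18 and passed under none. In the ratio of the 2 genes, the difference was 0.70 (SE 0.166), a test added after the data were seen. Flour labels exchanged within diabetic and within healthy libraries gave an exact permutation p of 0.01, and the adjusted p of 0.0675 did not pass. That test takes as its null that flour had no effect in either kind of rat. Averaged over both kinds of rat, the high dose left the ratio at a log2 difference of -0.11 (SE 0.083, exact permutation p = 0.455, adjusted p = 0.455).

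The listed genes whose pattern was most like that of Hao2 were Gclc, Slc3a1 and Miox. On the log2 scale of counts over the geometric mean of the 16 nuclear genes, Pearson's r over 18 libraries was 0.934, 0.924 and 0.875. For Miox they were Slc3a1 (r = 0.919), Hao2 (0.875) and Gclc (0.808). The gene least like Miox was Cyp2c23, which forms epoxides of arachidonic acid (r = -0.928). These r describe 18 libraries that fall into diabetic and healthy groups, and values scaled within a library sum to 0 over the 16 genes, so some must be negative.

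Other genes of the 2 pathways were hardly represented. Of 12 further peroxisomal genes and enzymes of hydroxy fatty acid metabolism looked for, 1 was in the table, Cyp4a2, which makes omega-hydroxy fatty acids. Of 12 genes of inositol supply and the glucuronate-xylulose pathway, 0 were. In DM against NC, Cyp4a2 rose under 3 scalings (TMM log2 value 1.43), the exception being nuclear scaling (-0.06). In NH against NC it rose with nuclear scaling alone (0.27), and its TMM value was -0.13. Of 17 proximal tubule markers, 9 were listed, the 2 oxidases among them, while none of 7 markers of other nephron segments or of 6 markers of blood, immune, vessel and stromal cells were. Of the remaining 7 proximal tubule genes, 7 rose in DM against NC under TMM (median log2 1.46 against 0.10 over the 29 features), where 55.2% of all features passed and 14 of the 16 nuclear genes rose. With nuclear scaling 3 rose and 2 fell (median -0.03 against -1.40), with 86.2% of all features passing. In NH against NC, 0 rose and 2 fell under TMM (median -0.13 against -0.02), with 51.7% of all features passing. With nuclear scaling 4 rose and 0 fell (median 0.27 against 0.38), with 79.3% passing. These 7 genes, Cyp4a2 among them, are part of the 14 genes that set nuclear scaling. The mean log2 change of those 14 is near 0 by construction, so nuclear scaling cannot show a shift that they share.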

How the data were processed

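Kidney RNA of 18 rat libraries was sequenced, 3 in each of 6 groups taken from the library titles. Libraries were made with the NEBNext Ultra kit on 1 µg of total RNA, per the labels' protocols. CASAVA 1.7, Bowtie 0.12.2 and mm8 are named, with no role, per the submitters' processing notes. For the rat build, annotation release and read counter: not given in the sources used here. The deposited values were read as counts: all 522 are whole, and read as FPKM they would need 5.88 to 12.1 times the reads of a library. The table lists feature lengths in bases as deposited (other). The lowest listed count was 10521, and at such counts the spread between libraries exceeds counting error.

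Differences were tested in edgeR 4.0.16 (quasi-likelihood F test, no dispersion trend, no filter, TMM scaling, 1 fit over 18 libraries or over the 12 diabetic ones for the slope) in R 4.3.3, with Benjamini-Hochberg adjustment over 29 features. The SE is the log2 fold change over the square root of F. DESeq2 1.42.0, limma 3.58.1 (log2 of the scaled count + 1), other scalings, a low-count filter, a replicate block, fits of 2 groups alone and fits without each library were tried. The edgeR test of DM over NC, unscaled, was also run on simulated counts with known changes, which did not try the other scalings. Ratio tests were two-sided exact permutations in Python 3.11.15. Genes of like pattern were the 3 nuclear genes with the highest r and the 1 with the lowest (for Hao2 this gene is not reported here), and other genes were named from lists of peroxisomal, inositol and tubule genes. Genes named in the ratios to single genes were chosen after their values were seen. The members and lists were chosen with earlier results of these data known.

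Same-numbered libraries of MP and DM deviated together (r = 0.684, 0.465 and 0.733 over the 29 features), each over 0.1, and the blocked fit is given there. Its replicate effects were shared by all 6 groups, although same-numbered libraries of LP and DM deviated in opposite directions (r = -0.722, -0.145 and -0.605). The labels state no pairing. Replicate libraries differed far beyond sampling noise (chi-square per degree of freedom from 104 to 3660), and each counted as 1 sample.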

Additional observations from a re-analysis of the deposited data

Results flagged for a closer look

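The mean Hao2 to Miox ratio was higher in HP than in DM and lower in NH than in NC. Each HP library had a higher ratio than the DM mean, although HP and DM libraries overlapped (exact permutation p = 0.2, adjusted p = 0.3), and each NH library had a lower one than every NC library. The difference of the effects was 0.70 on the log2 scale. Its test, chosen with the data in view, did not pass the adjustment (exact permutation p = 0.01, adjusted p = 0.0675), and its source was not tested. Without any 1 library it ranged from 0.58 to 0.80.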

How the results depend on the processing

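Neither gene's fold change is free of the scaling, and with no library totals the scale of each library cannot be settled. Hao2 in NH over NC kept its direction and its call under every alternative run, from -0.70 to -0.50 without any 1 library under TMM. limma and the low-count filter left every call and direction as it was, and the ratio of summed counts moved no ratio by more than its SE.

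Compared with TMM over 18 libraries, Hao2 in DM over NC turned to -0.31 (median-ratio scaling and DESeq2), -1.40 (nuclear scaling) and -0.84 (unscaled). It also turned to -0.16 with TMM over the 2 groups alone, and passed there (adjusted p = 0.00258 by edgeR). Under TMM Hao2 was negative without DM replicate 1 or 3 or NC replicate 1 or 2 (-0.32 to 0.11 over the 6 fits). Miox in DM over NC turned to -0.53 with nuclear scaling and lost its call unscaled (0.02; 0.55 to 1.03 without single libraries). In HP over NH, Hao2 turned to -0.04 (median-ratio scaling and DESeq2) and -0.95 (nuclear scaling) and lost its call unscaled (0.03) and in the 2 groups alone (0.37; 0.16 to 0.65 without single libraries). Miox there lost its call at 0.15 (median-ratio scaling and DESeq2) and 0.20 (unscaled) and turned to -0.78 with nuclear scaling (0.33 to 0.94 without single libraries). In NH over NC, Miox turned to 0.18 (median-ratio scaling and DESeq2) and 0.27 (nuclear scaling; -0.26 to -0.03 without single libraries).

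In LP over DM, Hao2 passed under median-ratio scaling and DESeq2 (0.47), in the 2 groups alone (0.25) and with the replicate block (0.33, adjusted p = 0.0311), and Miox turned to -0.23 (nuclear scaling) and to -0.05 (unscaled and the 2 groups alone), with 0.31 to 0.36 and -0.05 to 0.13 without single libraries. In MP over DM, Hao2 passed at -0.20 (nuclear scaling), -0.27 (replicate block) and -0.24 (2 groups alone) and turned to 0.09 unscaled, and Miox passed at -0.36 (nuclear scaling) and -0.40 (2 groups alone), with -0.34 to -0.07 and -0.58 to -0.22 without single libraries. In HP over DM, Hao2 turned to 0.26 (nuclear scaling) and 0.29 (unscaled) and Miox to 0.03 and 0.05, with -0.21 to -0.01 and -0.54 to -0.13 without single libraries. The difference of effects passed for Hao2 at 0.45 (nuclear scaling) and 0.87 (unscaled), and under TMM without DM replicate 1 or 3, HP replicate 1, NH replicate 1 or NC replicate 2 (0.35 to 0.64). For Miox it turned to 0.18 unscaled (-0.43 to -0.02). The slopes turned to 0.06 and 0.05 for Hao2 and 0.02 and 0.02 for Miox with nuclear scaling and unscaled (-0.06 to -0.04 and -0.12 to -0.05), and the Miox slope passed under TMM without HP replicate 3 (-0.12). The cause of these changes was not tested beyond the scale itself.

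The log2 ratio of Hao2 to Miox kept its direction in all fits without single libraries, at -0.92 to -0.80 in DM over NC, -0.28 to -0.07 in HP over NH, 0.23 to 0.36 in LP over DM, 0.08 to 0.25 in MP over DM, 0.13 to 0.34 in HP over DM and -0.51 to -0.39 in NH over NC, and at -0.57 to -0.47 between diabetic and healthy rats within feed and -0.17 to -0.06 between high dose and water. The replicate block changed the calls of Hao2 in LP and MP against DM and no other. Outside MP and DM, same-numbered libraries of the groups compared did not all deviate together, so the samples share only a number there.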
